A study of Mus musculus with 6 samples.

Results

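This comparison set cultured mouse CD4+ T cells labelled RA against those labelled Control, on 4 of the 6 arrays of a study of T cell genes under retinoic acid. Both RA arrays and both Control arrays were taken by their titles, and the 2 arrays labelled Ro, a name the labels do not expand, are quoted only as values beside some genes. CD4+ T cells are the helper class of T lymphocytes, and here they came from mouse spleen and from peripheral and mesenteric lymph nodes. The dose and solvent of retinoic acid and the strain, age and sex of the mice are not stated in the sources used here. A culture protocol stands in the label of Control replicate 2 alone. It lists hIL-2 at 100 U/ml, hTGF-b1 at 5 ng/ml, mIL-6 and mTNF-a each at 20 ng/ml, and mIL-1b, mIL-23 and mIL-21 each at 10 ng/ml. Antibodies against mIL-4 (10 ng/ml) and mIFN-gamma (10 ug/ml) were part of that mixture, and the culture ran for 5 days. Whether Control replicate 1 and the RA arrays had the same mixture is not given, so retinoic acid and any other difference between these cultures cannot be told apart.

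Retinoic acid is made from vitamin A by retinal dehydrogenases and acts through nuclear receptors of the RAR family, which bind DNA paired with RXR receptors. Cells break it down with cytochromes of the Cyp26 family, whose genes are themselves induced by it. In T cells it is best known for imprinting migration to the gut, through the chemokine receptor encoded by Ccr9 and the integrin formed by the products of Itga4 and Itgb7, and for tilting the balance between inflammatory Th17 cells and regulatory T cells.

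Each array carried 45101 probe sets, and the deposited values were signals in arbitrary units with array medians from 16.3 to 23.8. After a filter on dim probe sets, 28014 probe sets and 12412 genes were compared. Differences are on a log2 scale, after adding a constant of 3.00 to each signal and centring each array on its median, so a difference of a dim gene is understated. The Control arrays were unlike each other. Their log2 values correlated across probe sets at 0.871, whereas Control replicate 1 correlated with the RA arrays at 0.970 and 0.968, and the RA arrays with each other at 0.967. The Control arrays differed over 2-fold in 29.2% of genes and the RA arrays in 6.37%. The median absolute difference of a gene was 0.61 between the Control arrays, 0.29 between the RA arrays, 0.23 between the RA mean and Control replicate 1, and 0.60 between the RA mean and Control replicate 2. Each result is therefore given against each Control array. The defining T cell genes were well measured: Cd3e, a chain of the T cell receptor complex, read 2135 and 1010 in Control and 1701 and 1910 in RA, and Cd4 read 1476 and 463 against 1308 and 1141.

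A gene is called apart where both RA arrays lay above, or both below, both Control arrays. By that criterion 3148 of 12412 genes (25.4%) were higher in RA and 1027 (8.27%) were lower, or 33.6% in either direction. If the labels of the 4 arrays were exchangeable, a gene would be apart with probability 0.333. The share in either direction was near that value, so being apart does not by itself mark a gene as different. The balance between the directions depended on the scaling, with 75.4% of the genes apart being higher in RA after median centring, 56.6% after quantile normalization and 43.9% with no centring. With no centring 11.6% of all genes were higher and 14.8% lower, and after quantile normalization 16.4% and 12.6%. The median gene differed by 0.14 on the log2 scale after centring and by 0.02 after quantile normalization. A gap of at least 2-fold between the nearest arrays was left by 48 genes higher in RA (0.387%) and 45 lower (0.363%). Of these, 12 and 2 reached a signal of 100 on both arrays of the higher group. With limma, 0 of 28014 probe sets passed an adjusted p of 0.05 (0.0%), 640 had an unadjusted p under 0.05 (2.28%), and the lowest adjusted p was 0.692. An exact permutation test of 2 arrays against 2 cannot give a p below 0.333. The labels do not say that replicates came from separate cultures or mice. The p-values measure the spread between these arrays, which may be technical in part. The spread between the Control arrays included the Y chromosome gene Eif2s3y, at 855 and 0.972. In bulk RNA, fewer cells of a type and less RNA per cell cannot be told apart.

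The genes with the widest gaps above Control were Ccr9 and Cyp26b1. Ccr9, a chemokine receptor for entry into the small intestine, read 20.9 and 1.09 in Control and 509 and 398 in RA. Both Control values were dim, the second below the 40th percentile of its array (9.69), and both RA values lay far above the array median. The log2 difference was 5.55 (SE 0.73, n = 2 arrays per group, limma adjusted p = 0.938), with 4.51 against Control replicate 1 and 6.58 against Control replicate 2. All 5 of its probe sets were apart in the same direction, with differences from 2.12 to 6.15. Cyp26b1, which degrades retinoic acid, had 4.52 and 3.05 in Control and 87.1 and 115.5 in RA. Its single probe set differed by 3.97 (SE 0.415, limma adjusted p = 0.936), almost equally against Control replicate 1 (4.05) and Control replicate 2 (3.89). Both Control values lay below the 40th percentile of their arrays (12.57 and 9.69). The near equality of the differences thus rests on dim values and does not show that the Control arrays agreed. Beside these, the Ro arrays read 5.76 and 8.93 for Ccr9 and 1.77 and 3.70 for Cyp26b1.

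**Figure D1:**
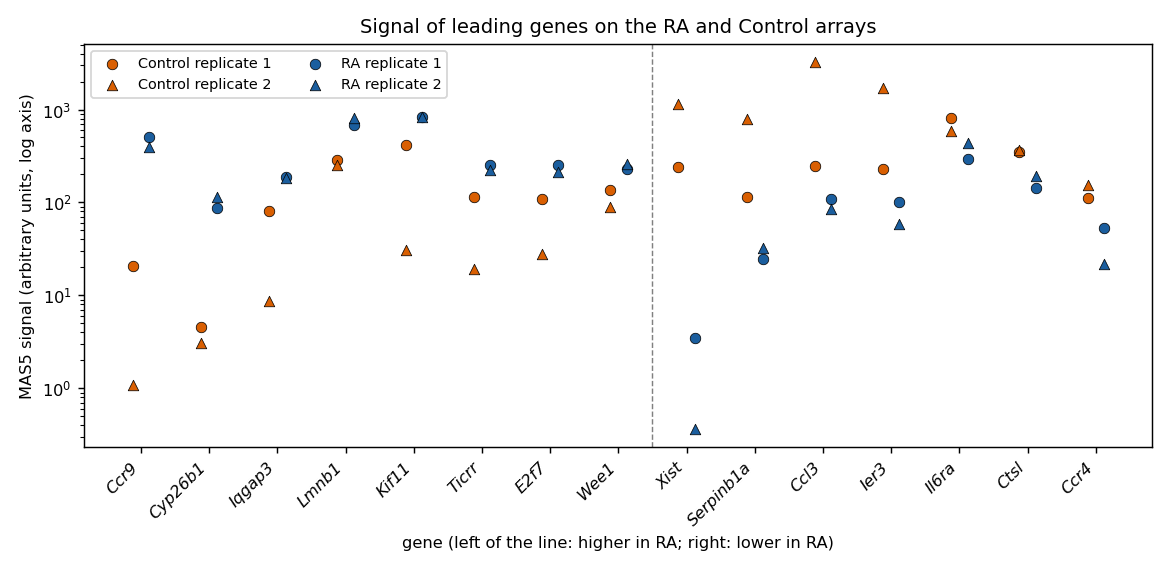
Deposited MAS5 signal (arbitrary units, log axis) of 15 leading genes on each of the 4 arrays; circles are replicate 1 and triangles replicate 2, orange for Control and blue for RA, with no averaging. Genes left of the dashed line were higher in RA and genes right of it lower; for Ccr9 and Cyp26b1 both Control points lie near the bottom (1.09 to 20.9), whereas for Kif11 the Control points themselves are far apart (415 and 30.9).

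The stretch of 250 bases before the transcription start is shown for these 2 genes, because they had the widest gaps and belong to the best known retinoid responses. The sequences are from RefSeq (GRCm38.p6), for Ccr9 at chr9:123766961-123767210 on the plus strand and for Cyp26b1 at chr6:84593811-84594060 on the minus strand, each written 5′ to 3′ in the direction of the gene. Capitals would mark, on either strand, the hexamer AGGTCA that retinoid receptors bind, or its variants AGTTCA and also GGGTCA, and neither window held any.
Ccr9: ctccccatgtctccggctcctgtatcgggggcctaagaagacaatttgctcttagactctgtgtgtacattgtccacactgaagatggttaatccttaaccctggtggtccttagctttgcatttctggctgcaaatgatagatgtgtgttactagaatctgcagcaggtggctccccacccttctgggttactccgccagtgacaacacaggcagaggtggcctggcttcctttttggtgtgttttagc
Cyp26b1: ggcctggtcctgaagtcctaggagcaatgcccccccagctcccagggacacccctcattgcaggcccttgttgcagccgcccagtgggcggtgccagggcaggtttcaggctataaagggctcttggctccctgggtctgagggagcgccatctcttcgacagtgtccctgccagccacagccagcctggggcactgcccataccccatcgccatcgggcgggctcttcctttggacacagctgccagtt
These windows are short, and a window without these letters says nothing about the receptors at other positions. Of the 134 named genes that were apart, 104 had promoters in the table. AGGTCA lay in 6.41% of the 78 promoters of those higher in RA and 13.7% of the 51 of those lower, against 14.0% of all 32851 promoters. AGTTCA lay in 8.97% and 13.7%, against 11.8%, and GGGTCA, a hexamer searched after seeing the data, in 17.9% and 7.84%, against 11.6%. Direct repeats of any of the 3 hexamers, spaced by 1, 2 or 5 bases, were found in 0 of these promoters and in 0.143%, 0.0852% and 0.0639% of all.

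Of 14 tested genes of retinoid metabolism and transport, 3 were apart and higher in RA (Cyp26b1, Dhrs3 and Rdh12), with a list median of 0.01. That share of 21.4% was near the 25.4% of all genes. Dhrs3, which reduces retinaldehyde back to retinol, had 75.5 and 19.0 in Control and 115 and 95.8 in RA, a difference of 1.41 (SE 0.55). Rdh12, another retinaldehyde reductase, had 74.7 and 36.5 against 126 and 86.7 (0.99, SE 0.43). For both genes the Control arrays themselves lay well apart, with Control replicate 1 the nearer to RA. Cyp26a1, the relative of Cyp26b1, had 15.7 and 20.2 in Control and 18.3 and 16.8 in RA, which overlapped. With no centring 2 further members of the list came out apart, lower in RA.

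Of 10 tested receptors and coregulators, 1 was apart and higher (Rxrb, a partner of the retinoic acid receptors) and 3 were apart and lower (Vdr, Ppard and Rarg), beside 25.4% and 8.27% of all genes. With no centring or quantile normalization Rxrb was no longer apart. Rarg, a retinoic acid receptor, had 181 and 114 in Control and 107 and 105 in RA, a difference of -0.40 (SE 0.34). Rara, the main such receptor of T cells, had 62.3 and 82.8 against 33.4 and 68.9, and Rxra had 83.8 and 53.3 against 63.2 and 69.0. Both overlapped between the groups. Rarb was too dim on the 4 arrays to be compared, with signals from 0.308 to 1.37. Vdr, the vitamin D receptor, had 29.4 and 44.6 against 14.9 and 16.2, and Ppard, a fatty acid receptor, 84.3 and 133 against 46.2 and 60.8. The differences were -1.05 (SE 0.51) for Vdr, where 1 of 2 probe sets was apart, and -0.93 (SE 0.48) for Ppard.

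Of 8 tested genes linked to gut homing, 5 were apart, all higher in RA, beside 25.4% of all genes, with a list median of 1.14. The median was 0.32 against Control replicate 1 and 2.24 against Control replicate 2. Itga4 had 1195 and 154 in Control and 1537 and 1410 in RA, a difference of 1.80 (SE 0.80), and 2 of its 4 probe sets were apart. The difference was 3.03 against Control replicate 2 and 0.57 against Control replicate 1. Itgb7 had 2809 and 917 against 2258 and 2924, S1pr4, a sphingosine phosphate receptor, 2808 and 557 against 2600 and 2753, and P2rx7, an ATP-gated channel, 759 and 80.3 against 805 and 714. These 3 genes were apart after median centring by gaps of 0.14 or less and were not apart with no centring or after quantile normalization, where 2 of 8 members were apart, beside 11.6% and 16.4% of all genes. Of the 3 probe sets of P2rx7, 1 was apart. In each of them Control replicate 1 was level with RA and Control replicate 2 alone was low. Itgae, an integrin of cells in the gut lining, had 19.7 and 276 in Control and 32.0 and 13.9 in RA. Gpr15, a receptor for homing to the colon, had a signal of 1040 on Control replicate 2 and of 0.989 to 5.60 on the other 3 arrays, and did not enter the comparison.

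Genes of cell division were higher in RA almost throughout. Of 37 tested genes of mitosis and the spindle, 36 were apart and higher in RA and 0 were lower, beside 25.4% and 8.27% of all genes. Their median difference was 2.17 (log2), with 0.89 against Control replicate 1 and 3.42 against Control replicate 2. Of 34 DNA replication genes, 25 were apart and higher (median 1.07, with 0.84 and 1.32 against each Control array). All 17 tested DNA repair genes were apart and higher (median 1.18, with 0.90 and 1.53). The counts moved little with the scaling: 36, 26 and 16 with no centring and 36, 25 and 16 after quantile normalization.

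Kif11, the motor that separates the spindle poles, had 415 and 30.9 in Control and 837 and 830 in RA, a difference of 2.84 (SE 0.99). Of the 3 probe sets of Kif11, 2 were apart. Bub1, a kinase of the spindle checkpoint, had 431 and 34.1 against 847 and 669 (2.60, SE 0.98). Mki67, the proliferation marker Ki-67, had 3087 and 299 against 3957 and 3504 (1.98, SE 0.91). In all 3 genes Control replicate 1 stood between a low Control replicate 2 and the RA arrays. Anln and Kif4, needed for the last steps of division, differed by 2.32 (SE 0.80) and 2.43 (SE 0.83). The member that overlapped was Cdc20, an activator of the anaphase complex, with 2153 and 212 in Control and 3226 and 1795 in RA.

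Replication genes showed smaller gaps between the Control arrays. Tk1, thymidine kinase, had 366 and 165 in Control and 916 and 646 in RA (1.67, SE 0.42). Pole, a replicative DNA polymerase, had 202 and 89.4 against 422 and 360 (1.54, SE 0.40), and Rrm1, a subunit of ribonucleotide reductase, 850 and 325 against 1552 and 1385. Pcna, the sliding clamp of the replication fork, was bright on all arrays but overlapped, at 4516 and 4134 against 6135 and 4466. Of the repair genes, Brca1 had 220 and 58.4 against 415 and 384 (1.81, SE 0.53), and its partner Bard1 was dim in Control, at 3.31 and 0.539 against 24.7 and 22.7 (2.53, SE 0.52).

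The genes with the largest gaps among bright ones were mostly of the same kind. After Ccr9 came Iqgap3, a scaffold protein of dividing cells, with 80.6 and 8.80 in Control and 188 and 183 in RA. Lmnb1, a lamin of the nuclear envelope, had Control arrays that were alike, with 284 and 251 in Control and 673 and 820 in RA, a difference of 1.65 against Control replicate 1 and of 1.35 against Control replicate 2. Wee1, a kinase that holds back entry into mitosis, was likewise similar against each Control array on the probe set shown, at 136 and 88.8 against 232 and 262 (1.17, SE 0.33). The other probe set of Wee1 was also apart but had unlike Control arrays, at 93.1 and 15.98 against 102.9 and 103.6. There Control replicate 1 lay near the RA arrays. E2f7 and E2f8, repressors of the E2F family that act late in the cycle, had 109 and 27.7 against 252 and 212, and 188 and 28.0 against 418 and 356. Ticrr, Stil, Nemp1 and Atad5, the first and last with roles in DNA replication, left gaps of 1.10, 1.05, 1.03 and 1.02. Grtp1 (84.9 and 21.8 against 213 and 157) and Enpp4 (78.4 and 29.3 against 121 and 141) are not cell cycle genes. Grtp1 read 2.57 and 19.6 on the Ro arrays.

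Arrays with the same label also differed in these genes. The summed signal of the mitosis list was 60263 and 43433 on the RA arrays, 35478 on Control replicate 1, 4604 on Control replicate 2, and 68134 and 23214 on the Ro arrays. The Ro arrays thus lay on both sides of the RA arrays and of Control replicate 1. For Kif11 the Ro arrays read 1560 and 319. RA replicate 2 lay below RA replicate 1 over the mitosis list, with a median difference of -0.67 between them.

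**Figure D2:**
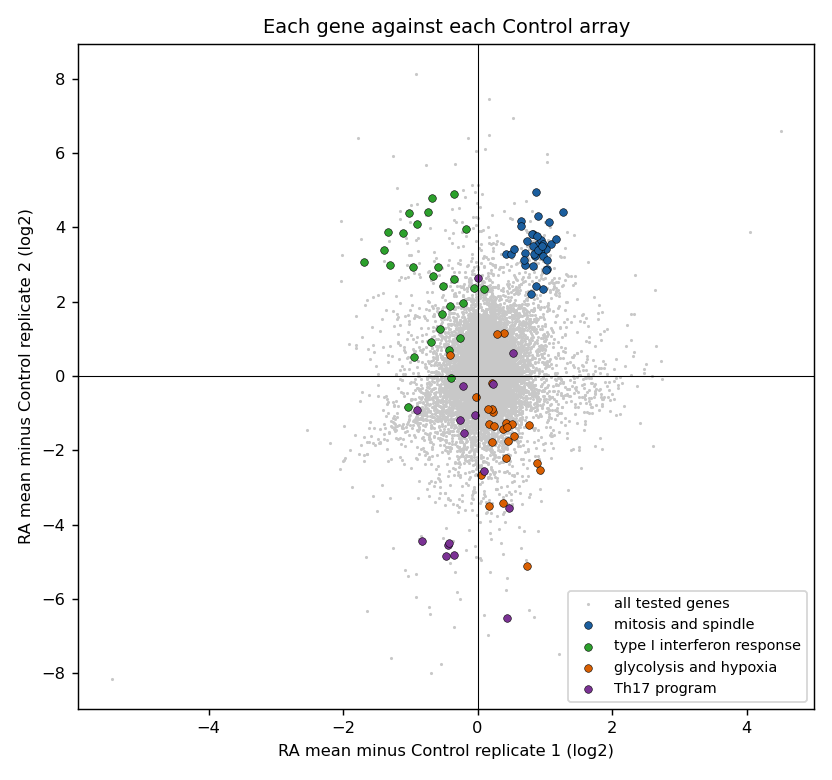
Log2 difference of the RA mean from Control replicate 1 (horizontal) and from Control replicate 2 (vertical) for each of the 12412 tested genes (grey), with 4 gene lists in colour. Mitosis genes lie to the upper right, above both Control arrays; interferon genes lie to the upper left and glycolysis genes mostly to the lower right, where the direction turns with the Control array used.

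The promoters of 3 of these genes are shown because the letters CCAAT, bound by the factor NF-Y, and TTTGAA, found in promoters of genes expressed late in the cycle, recur in the mitosis list. The search for these letters, and for the E2F letters TTTGGCGC, TTTCGCGC and TTTCCCGC, was added after seeing the data. The sequences are from RefSeq (GRCm38.p6), 250 bases before the start, 5′ to 3′ in the direction of the gene: Kif11 at chr19:37376132-37376381 on the plus strand, Bub1 at chr2:127831860-127832109 on the minus strand and E2f7 at chr10:110745189-110745438 on the plus strand. Capitals mark CCAAT on either strand, in Kif11 also TTTGAA and in E2f7 also the E2F letters.
Kif11: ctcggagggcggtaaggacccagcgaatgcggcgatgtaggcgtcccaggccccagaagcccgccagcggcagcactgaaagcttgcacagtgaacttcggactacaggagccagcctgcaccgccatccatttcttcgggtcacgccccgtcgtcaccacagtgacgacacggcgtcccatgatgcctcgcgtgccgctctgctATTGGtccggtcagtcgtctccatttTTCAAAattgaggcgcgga
Bub1: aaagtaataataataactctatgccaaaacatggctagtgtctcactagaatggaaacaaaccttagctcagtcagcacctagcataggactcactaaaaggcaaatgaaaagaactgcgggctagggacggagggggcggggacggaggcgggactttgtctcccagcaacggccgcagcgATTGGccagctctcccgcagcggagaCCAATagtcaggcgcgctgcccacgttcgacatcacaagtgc
E2f7: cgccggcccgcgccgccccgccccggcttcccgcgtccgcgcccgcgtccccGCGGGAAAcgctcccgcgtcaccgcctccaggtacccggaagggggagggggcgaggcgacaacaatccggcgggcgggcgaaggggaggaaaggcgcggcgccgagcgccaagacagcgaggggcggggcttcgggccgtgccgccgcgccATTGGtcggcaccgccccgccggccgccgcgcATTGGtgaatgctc
CCAAT lay in 27 of 35 promoters of mitosis genes that were apart (77.1%, from 31 genes), in 18 of 30 of replication genes and in 47.1% of those of repair genes, against 33.8% of all promoters. TTTGAA lay in 11 of 35 mitosis promoters (31.4%), 6 of 30 replication promoters, 1 of 17 repair promoters (5.88%) and 5252 of all 32851. The E2F letters lay in 8 of 30 replication promoters (26.7%), 2 of 17 repair promoters (11.8%), 2.86% of the mitosis promoters and 1.53% of all. Most members of these lists were apart, so the shares mainly describe the lists as chosen rather than the arrays. Some genes have several promoters in the table, so promoters of a gene can overlap. A match is a stretch of letters, not a measured site.

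Of the genes lower in RA, which outnumbered the higher ones with no centring (1841 against 1439), the widest gap was that of Xist, a noncoding RNA that coats the silenced X chromosome. It had 241 and 1145 in Control and 3.48 and 0.364 in RA, a difference of -6.79 (SE 0.94, limma adjusted p = 0.938), and all 3 of its probe sets were apart. Eif2s3y, a gene of the Y chromosome, had 855 and 0.972 in Control and 857 and 747 in RA. Control replicate 1 therefore carried both transcripts, Control replicate 2 had Xist with Eif2s3y near the bottom of its array, and the RA arrays the reverse. The sex of the mice and the cultures' labels cannot be told apart here, and the part of sex in other genes was not tested.

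The other bright genes lower in RA included inflammatory and migration genes. Serpinb1a, a protease inhibitor, had 116 and 788 in Control and 24.4 and 32.3 in RA (-3.27, SE 1.01). Ccl3, an inflammatory chemokine, had 248 and 3221 against 108 and 84.7, and Ier3, an early response gene, 228 and 1711 against 102 and 58.4. In these 3 genes Control replicate 2 was far above Control replicate 1. Genes with similar Control arrays were Il6ra, the interleukin 6 receptor (815 and 587 against 296 and 438, difference -0.91, SE 0.33), the lysosomal protease Ctsl (350 and 368 against 144 and 193, -1.06, SE 0.36), and Rgs2, a brake on G protein signalling (516 and 467 against 269 and 237, -0.92, SE 0.35). Ptger4, a prostaglandin E2 receptor, had 819 and 710 against 431 and 530 (-0.64, SE 0.32). Against the Control arrays taken singly, the Il6ra probe set shown was lower by the same amount, at -0.91 and -0.91. The other probe set of Il6ra had unlike Control arrays, at 294 and 115 against 101 and 123. It was apart after centring, but its signals overlapped before centring. Ecm1, Lama5, Aqp9, Ifitm3 and Rragd were also among the 15 genes with the largest gaps, between -0.61 and -0.48. Ddx46 belonged to the same 15, but just 1 of its 5 probe sets was apart. For Ptger4 and for Aqp9, 1 of 2 probe sets was apart.

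Of 23 tested trafficking receptors and selectin ligand genes outside the gut homing list, 10 were apart and lower (43.5%, beside 8.27% of all genes) and 0 were higher. The counts were again 10 and 0 with no centring and after quantile normalization, where 14.8% and 12.6% of all genes were lower. The list median was -0.30, with -0.11 against Control replicate 1 and -0.47 against Control replicate 2. Ccr4, a receptor for skin homing, had 111 and 156 in Control and 53.6 and 21.8 in RA (-1.81, SE 0.61). For Ccr4 the Ro arrays were also below both Control arrays, at 41.9 and 2.75. Ccr8, another receptor of skin homing cells, had 52.4 and 93.1 against 26.4 and 21.8 (-1.40, SE 0.54), and Gcnt1, an enzyme that builds selectin ligands, 39.99 and 73.9 against 17.8 and 18.6 (-1.41, SE 0.55). In these 3 genes both RA arrays were below both Control arrays by at least 0.54. Itga5, an integrin chain for fibronectin, was dim throughout, at 17.6 and 19.4 against 6.31 and 6.18. Another of its probe sets overlapped, at 3.23 and 31.4 against 6.18 and 24.8. Ccr7, the lymph node homing receptor, was bright and differed little, at 3457 and 3144 against 2400 and 2847 (-0.30, SE 0.33).

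**Figure D3:**
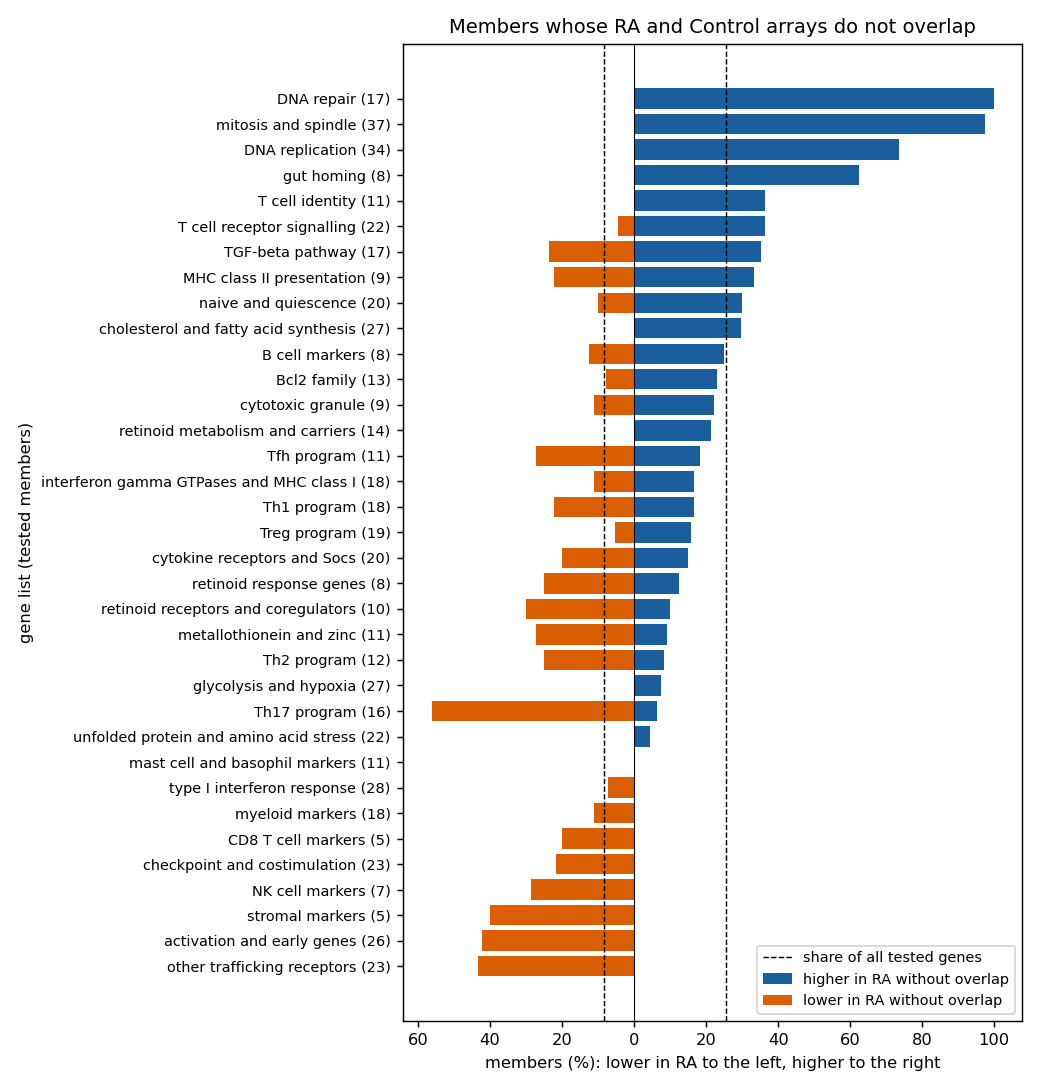
Share of the tested members of each gene list (percent, number tested in brackets) that were higher in RA (blue, to the right) or lower (orange, to the left) without overlap between the 2 RA and the 2 Control arrays; dashed lines are the shares of all tested genes, 25.4% and 8.27%. The 3 cell division lists extend farthest to the right, and the Th17, trafficking and activation lists reach farthest to the left.

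T helper genes differed mainly from Control replicate 2. Of 16 tested Th17 genes, 9 were apart and lower in RA and 1 was higher (Il17rb), beside 8.27% and 25.4% of all genes. With no centring the counts were 10 and 1, beside 14.8% and 11.6%. The list median was -1.07, with -0.21 against Control replicate 1 and -2.06 against Control replicate 2. Il17a, the cytokine that names these cells, had 10.9 and 1230 in Control and 8.01 and 18.9 in RA, which overlapped. Il21, a cytokine of Th17 and follicular cells, had 2.97 and 1566 against 4.66 and 2.30 and was not compared. Ahr, a ligand-activated transcription factor, had 41.8 and 552 against 22.4 and 26.7, Maf, a factor for interleukin 10 and 21 genes, 93.9 and 1175 against 54.1 and 60.5, and Ltb4r1, a leukotriene receptor, 74.5 and 681 against 39.9 and 27.5. These 3 were below Control replicate 1 as well, by -0.44, -0.42 and -0.83, though 1 of 2 probe sets of Ahr and 3 of 6 of Maf were apart.

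Regulatory T cell genes lay mostly between the Control arrays. Foxp3, their defining factor, had 40.3 and 154 in Control and 44.3 and 40.1 in RA, and Il2ra, the interleukin 2 receptor alpha chain, 601 and 3062 against 587 and 588. Both were level with Control replicate 1 and far below Control replicate 2. Of 19 tested members, 18 had an RA mean above Control replicate 1 and 4 had one above Control replicate 2, and 3 were apart and higher (Entpd1, Ikzf2 and Tgfb1) against 1 lower (Socs2). Those shares of 15.8% and 5.26% were below the 25.4% and 8.27% of all genes, and with no centring the counts turned to 1 and 3. Il10 had 11.3 and 612 against 2.30 and 7.91 and was not compared.

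Of 18 Th1 genes 3 were apart and higher (16.7%) and 4 lower (22.2%), beside 25.4% and 8.27% of all genes. Ifng, their cytokine, had 3.86 and 2054 in Control and 3.15 and 25.5 in RA, Tbx21, their factor, 110 and 143 against 36.8 and 185, and Ifngr1, the receptor chain, 1493 and 695 against 1592 and 2421 (0.98, SE 0.38). Of 12 Th2 genes 1 was higher (8.33%) and 3 lower (25.0%), and with no centring 1 and 6. The 3 lower ones were Ccr4 and Ccr8, counted above among trafficking receptors, and Maf, counted among Th17 genes. Gata3, their factor, had 953 and 84.4 against 780 and 789, and Il4 41.1 and 49.0 against 37.3 and 23.1. Both overlapped between the groups. Of 11 follicular helper genes 2 were higher (18.2%) and 3 lower (27.3%).

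Genes of T cell activation, where apart, were lower in RA. Of 26 tested activation and early response genes, 11 were apart and lower and 0 higher, beside 8.27% of all genes lower. With no centring 13 were lower and after quantile normalization 14, beside 14.8% and 12.6%. The list median was -0.65, with -0.19 against Control replicate 1 and -1.51 against Control replicate 2. Fosl2 and Junb, parts of the AP-1 factor, had 374 and 782 against 219 and 252, and 836 and 2176 against 553 and 564. Of the 2 probe sets of Fosl2, 1 was apart. Fos, the founding AP-1 gene, had more similar Control values, at 326 and 227 against 209 and 206 (-0.35, SE 0.33). Il2, the growth factor of activated T cells, had 56.9 and 2288 in Control and 36.9 and 39.99 in RA. Of 23 checkpoint and costimulation genes, 5 were apart and lower (21.7%, beside 8.27%) and 0 higher, among them Pdcd1lg2, a ligand of PD-1 (86.9 and 181 against 41.9 and 42.0), and Lag3, an inhibitory receptor (1324 and 1011 against 818 and 688).

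For several gene groups the direction turned with the Control array. Of 28 type I interferon response genes, 1 had an RA mean above Control replicate 1 and 26 had one above Control replicate 2, with list medians of -0.62 and 2.65. Ifit3, an antiviral effector, had 811 and 18.4 in Control and 126 and 515 in RA. Bst2, a virus tether at the cell surface, and Ifi35 were the 2 members below both Control arrays, at 722 and 454 against 361 and 236 for Bst2. Of 27 glycolysis and hypoxia genes, 23 had an RA mean above Control replicate 1 and 4 above Control replicate 2 (medians 0.29 and -1.34). Egln3, an oxygen sensor, had 72.4 and 3163 in Control and 107 and 97.1 in RA. Of 22 genes of unfolded protein and amino acid stress, 21 lay above Control replicate 1 and 1 above Control replicate 2 (0.22 and -1.55), and the metallothioneins Mt1 and Mt2, metal-binding proteins, read 6576 and 5869 on Control replicate 2 against 20.9 to 54.6 on the other 3 arrays.

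**Figure D4:**
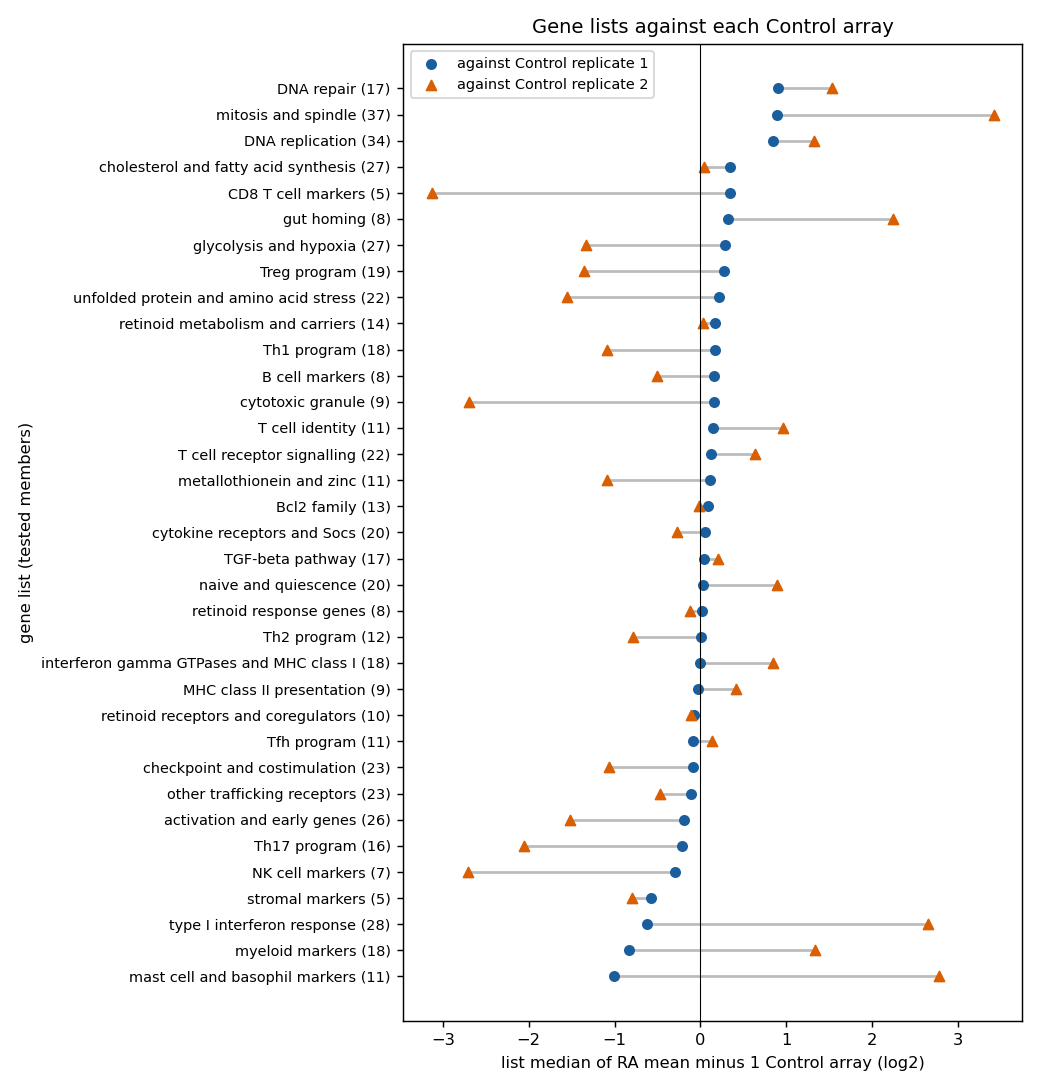
Median log2 difference of the RA mean from Control replicate 1 (blue circles) and from Control replicate 2 (orange triangles) over the tested members of each gene list, with the number of members in brackets and a grey line joining the pair. Lists whose line crosses 0 changed direction with the Control array, such as type I interferon response (-0.62 and 2.65) and glycolysis and hypoxia (0.29 and -1.34); the cell division lists stay above 0.

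Cholesterol and fatty acid synthesis genes were slightly higher than Control replicate 1, in 26 of 27 members with a list median of 0.35, and level with Control replicate 2 (0.04). Of these, 8 were apart and higher (29.6%, near the 25.4% of all genes) and 0 lower, and after quantile normalization 4 and 1 (14.8% higher, beside 16.4%). Fads1, a fatty acid desaturase, had 203 and 120 in Control and 245 and 278 in RA (0.76, SE 0.33), and Fads2 62.5 and 78.6 against 131 and 126 (0.88, SE 0.42). In both genes the RA arrays lay above both Control arrays, by gaps of 0.61 and 0.36, though the other probe sets of Fads2 overlapped and 1 of 3 was apart.

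T cell receptor signalling, naive state and T cell identity genes were apart and higher in 8 of 22, 6 of 20 and 4 of 11 members (36.4% of the first and of the last, beside 25.4% of all genes), and lower in 1, 2 and 0. With no centring those counts were 0, 0 and 0 higher and 2, 2 and 1 lower, beside 11.6% and 14.8% of all genes, so these counts depended on the scaling. Txnip, a gene of resting cells, had 2647 and 545 in Control and 2306 and 2933 in RA. Klf3, a quiescence factor, had 1816 and 107 against 1609 and 1798, with 1 of its 7 probe sets apart. In these genes Control replicate 2 was low and the other 3 arrays were level.

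Markers of other cell types also differed between the arrays. The summed signal of 18 myeloid markers was 4263 on Control replicate 1, 258 on Control replicate 2 and 1349 and 1229 on the RA arrays, and 2 of the 18 had an RA mean above Control replicate 1. For 11 mast cell and basophil markers the sums were 4177, 205, 1720 and 1541, and 3 of 11 were above Control replicate 1. Lyz2, a lysozyme of macrophages, had 1287 and 9.57 in Control and 291 and 232 in RA, and Mcpt8, a basophil protease, 1955 and 6.72 against 766 and 594. NK cell markers summed to 1994 and 5914 in Control and 1255 and 1520 in RA, and CD8 T cell markers to 514 and 2572 against 379 and 683. Of 13 NK members 7 were tested, and the receptor genes Ncr1, Klrc1 and Klra8 were not among them. Among those tested, Gzma, a granzyme, had 86.7 and 664 against 64.0 and 52.1, and Klrk1 25.8 and 627 against 11.4 and 21.9. Other members carried most of the NK sum on Control replicate 2. Cd8a read 10.8 and 170 against 14.9 and 15.5, whereas Cd8b1 read 124 and 85.0 against 54.6 and 86.7. Cd8a and Cd8b1 thus held a small part of the CD8 sum on Control replicate 2. B cell markers summed to 2749 and 1305 against 2411 and 2969, nearly all of it Ighm (2643 and 1169 against 2313 and 2841). Cd79a, which B cells need for their receptor, was dim, at 3.71 and 1.25 against 10.2 and 14.2. Stromal markers summed to 5408 and 11970 against 6354 and 4775. Of 10 members 5 were tested, and Col1a1, Col3a1, Cdh5, Lum and Dcn were not. Sparc and Kdr, the 2 members apart, were dim. They read 17.9 and 13.6 against 1.42 and 9.45, and 22.2 and 18.2 against 8.42 and 14.4, so other members carried nearly all of the stromal sum. The part of these cells in the differences of other genes was not tested.

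The counts of the remaining lists are read beside 25.4% of all genes higher and 8.27% lower. Of 8 retinoid response genes 1 was higher (Hic1, a repressor, at 217 and 79.0 against 179 and 212) and 2 lower (Ahr and Egr1), and Hic1 was not apart with no centring. Of 17 TGF-beta pathway genes 6 were higher (35.3%) and 4 lower (23.5%), and 1 and 4 with no centring. Of 20 cytokine receptor and Socs genes 3 were higher and 4 lower, of 18 interferon gamma and MHC class I genes 3 and 2, of 9 MHC class II genes 3 and 2 (33.3% and 22.2%), of 13 Bcl2 family genes 3 and 1, of 9 cytotoxic granule genes 2 and 1, of 11 metallothionein and zinc genes 1 and 3, and of 4 sex-linked genes 1 and 1. Smad3 and Smad7, a transducer and an inhibitor of TGF-beta signals, read 423 and 308 against 396 and 553, and 478 and 331 against 251 and 335. The signals of both overlapped before centring. Of the erythroid markers 1 was tested, and it overlapped.

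With Control replicate 2 left out, so that Control replicate 1 alone stands for Control and is assumed to vary like the RA arrays, limma called 40 probe sets, 21 higher in RA and 19 lower. The higher ones included 4 probe sets of Ccr9 (adjusted p from 2.09e-26 to 0.00646), Cyp26b1 (1.64e-11), 2 of Lmnb1 (0.0062 and 0.0041), and single ones of Iqgap3, Fen1 and Grtp1. Gzmc, a granzyme, was called too, at 24.5 on Control replicate 1 and 138 and 103 in RA, but at 253 on Control replicate 2. The lower ones included Xist and the myeloid genes Lyz1, Lyz2, Chil3 and Lpl, and the myeloid ones were lower still on Control replicate 2. Chil3, a chitinase-like protein of macrophages, had 222 and 1.19 in Control and 60.5 and 30.5 in RA, and Lpl, lipoprotein lipase, 239 and 4.21 against 50.1 and 42.5. With Control replicate 1 left out instead, 7154 probe sets were called. The nearest RA and Control arrays were 4.23 apart on the log2 scale for Ccr9, 3.79 for Cyp26b1 and 1.31 for Lmnb1.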

How the data were processed

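Signals were deposited by the authors as one intensity per probe set, on a linear scale; MAS5 is the method named in the notes of the submitters, without version or scaling target. RNA (2 ug per array) was labelled with biotin, per the labels' protocols. Symbols came from the platform annotation at GEO: 34958 probe sets have 1 symbol, 932 several and 9211 none. The 64 control probe sets were left out. Values were taken as log2(signal + 3.00), the constant being the 20th percentile of all values, and each array was centred on its median. Probe sets above the 40th percentile of their array on at least 2 of the 4 arrays were kept. A gene is represented by its brightest tested probe set, cross-hybridising ones last. Each probe set was fitted with limma 3.58.1 under R 4.3.3 (lmFit, then eBayes with an intensity trend, 2-sided, Benjamini-Hochberg adjustment over all tested probe sets). The fit was first tried on simulated data. Their noise followed the spread between the RA arrays in both groups, so the wider spread between the Control arrays was not covered.

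The genes named are, per direction, up to 15 with the largest gap at a signal of at least 100 on both arrays of the higher group, up to 4 members apart in each of 37 gene lists (or 2 by difference), and a list of T cell genes. Rarb, Il2, Il10, Il21, Pcna, Cdc20, Cyp26a1, Itgae, Gpr15, Ifit3, Egln3, Lyz1, Lyz2, Chil3, Lpl, Gzmc and Fen1 fall outside this rule and were chosen after seeing their values. The comparison, lists and rule were chosen with earlier results of these data known, so a list is described by counts, with no test. Of 665 list genes 612 were on the array and 546 were tested. Some genes belong to several lists, such as Ahr, Ccr6 and Maf, so counts of different lists are not independent. Low MAS5 signals carry much noise, the number of arrays limits precision, and detection calls were not used here.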

Additional observations from a re-analysis of the deposited data

How the results depend on the processing

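The limma count was 0 as reported and with every other constant, scaling, filter, variance trend and sample set tried, except in the following settings. With the replicate number as a block, 5 probe sets were called (3 of Ccr9 and 2 of Xist). The count also changed when 1 array was left out (0 to 7154 calls). The labels do not say whether the replicate numbers pair the arrays. Deviations of RA and Control replicate 1 correlated at 0.0018. The Control deviations are set by the difference between the unlike Control arrays, so this value cannot decide whether the numbers pair the arrays. Leaving out each array in turn gave 4748 to 5832 genes higher without overlap and 2051 to 4372 lower, since 1 array fewer has to be cleared. In the same settings the genes higher in RA by 2-fold without overlap numbered 53 to 1595 and the genes lower in RA by 2-fold without overlap 42 to 933. With no centring 1439 genes were higher and 1841 lower, and after quantile normalization 2041 and 1564. With no filter 1910 were lower, and with a filter at the 60th percentile 500. At a 2-fold gap, 27 were higher with no centring, 74 and 96 were higher and lower with no filter, 19 and 2 with the stricter filter, and 7 and 2 with a constant at the median of all values. List medians that moved by more than 1 SD of the list's median level between arrays of a group (0.0182 for TGF-beta pathway) were those of TGF-beta pathway (0.0082 with the mean of probe sets, 0.14 with no centring, 0.12 with no filter, 0.15 with the larger constant, 0.0002 after quantile normalization), retinoid receptors (-0.15 after quantile normalization), B cell markers (-0.30 with the mean of probe sets, -0.24 with no filter), stromal markers (-0.35 with no filter, -0.34 with the larger constant, -0.35 after quantile normalization, 0.48 with the stricter filter), NK cell markers (0.15) and CD8 T cell markers (-0.52, both with the stricter filter). Without each array in turn the medians ran from -3.13 to 0.35 for CD8 T cell markers, -2.70 to -0.30 for NK cell markers, -2.69 to 0.16 for cytotoxic granule, -1.51 to -0.19 for activation, -1.36 to 0.27 for Treg, -1.03 to 3.02 for mast cell markers, -0.90 to 1.61 for myeloid markers, -0.80 to -0.20 for stromal markers, -0.34 to 0.44 for B cell markers, -0.11 to -0.0081 for retinoid receptors, 0.0257 to 0.89 for naive state, 0.0433 to 0.25 for TGF-beta pathway and 0.32 to 2.24 for gut homing. Ddx46 turned to 0.0585 with the mean of probe sets and ran from -0.971 to 0.45 without each array in turn, and Ighm to -0.36 with the mean of probe sets. Why these values moved was not tested.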
